A study of Mus musculus with 12 samples.

Results

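The protocadherins are cadherin-like adhesion proteins of the cell surface, and every gene whose symbol begins with Pcdh in the deposited tables was taken as a member. This gave 63 genes of the 19357 in either of the 2 tables, of which 62 were in the 5-day table, 47 in the 10-day table and 46 in both. By symbol, 11 of them are non-clustered genes and 52 belong to the clusters, as 10 alpha, 20 beta and 22 gamma genes. The GENCODE M21 annotation holds 70 such genes, and the 7 that were in neither table are Pcdh12, Pcdha2, Pcdha4, Pcdha8, Pcdhac1, Pcdhb9 and Pcdhb10. Pcdhb11 was in the 10-day table alone.

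The cells were E14 mouse embryonic stem cells of the Ribo-Tweezer line with the genotype RACK1-AID/RPS26-Tir1, in which the ribosomal protein RACK1 carries an auxin-inducible degron and the plant receptor Tir1 is fused to the small-subunit protein RPS26. IAA (auxin) lets Tir1 mark RACK1 protein for destruction. The 4 groups of 3 libraries each were cells given IAA for 5 days, DMSO controls of that time, cells examined 10 days after IAA was withdrawn and DMSO controls of that later time. All 12 libraries, the controls included, were made from poly(A) RNA of cells with both fusions, and whether the line is 1 clone is not given in the sources used here.

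Clustered protocadherins are expressed in combinations that give a neuron its surface identity, by which branches of the same cell recognise and avoid each other. In the alpha and gamma clusters each gene joins a variable first exon, with a promoter of its own, to constant exons shared by the whole cluster, whereas a beta gene is a single exon. Choice among the variable promoters involves CTCF and cohesin, which loop a promoter to a distant enhancer, and DNA methylation, which keeps the others silent. The last variable exons of the alpha and gamma clusters, the C-type genes, are regulated apart from the rest. Non-clustered protocadherins are encoded by separate genes, most of them are called delta protocadherins, and many act in morphogenesis and in the sorting of cells and axons.

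The values are folds of IAA over DMSO on the log2 scale and mean levels in log2 CPM, read counts scaled to the size of each library, from limma tables without columns for single libraries. A standard error (SE) is the fold divided by its moderated t, and a group level is the mean level plus or minus 0.5 of the fold. Both are thus derived from the deposited values. The SE reflects the spread between libraries only as limma moderated it across genes, and a group level does not show that spread. A gene is called changed at a Benjamini-Hochberg (BH) adjusted p under 0.05 over the whole table. Judged by the level that genes with 1 read in 1 library take, 1 CPM was about 23.3 reads per library at 5 days and 21.2 reads at 10 days, as geometric means over libraries. The headers do not state the direction of a fold, and positive was read as higher with IAA. As a check, the mean level in the 5-day table minus that in the 10-day table was regressed on the 5-day fold over 4772 called genes. The slope was 0.533 ± 0.0114 (SE), and with alike DMSO controls it should be 0.5 for this reading or -0.5 for the opposite one. The controls were not alike for every gene. On this reading, in tables normalized separately, DMSO cells had Pcdh1 at 2.30 log2 CPM at 5 days and 0.32 at 10 days. For Dnmt3b these levels were 8.29 and 6.96. Nothing in the labels shows that replicates came from separate cultures, and the p-values then reflect a spread that may be technical.

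After 5 days of IAA the non-clustered protocadherins Pcdh8, Pcdh18, Pcdh9 and Pcdh1 rose, and in the gamma cluster 4 genes fell while 2 rose. In all 12 of 62 members (19.4%) were called in the authors' deposited table, against 25.5% of all 18765 genes. Of these 8 rose, where 13.5% of all genes did, and 4 fell, where 12.1% of all genes did. Most members were rare, and the share called depends on level. Among members at or above a mean log2 CPM of 0, 5 of 16 were called, against 33.7% of all genes at such levels, and among those under 0, 7 of 46 were called, against 7.91%. Removing the trend of folds with transcript length and GC content gave 8 higher and 7 lower members, where 9.49% of all genes were higher and 19.3% lower.

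The subgroups differed in where their folds lay. Among the non-clustered genes 4 of 11 (36.4%) were called in the authors' deposited table, all higher, 10 of the 11 folds were above 0 and the median log2 fold was 1.41. Among the 51 clustered genes 8 (15.7%) were called, 4 in each direction, 30 folds were above 0 and the median was 0.16. Of all genes 25.5% were called, and 9660 of 18765 folds were above 0. At or above a mean log2 CPM of 0, 4 of 14 clustered genes were called, and under it 4 of 37. These lie near the shares of all genes at such levels, 33.7% and 7.91%. Of the non-clustered genes 1 of 2 and 3 of 9 were called at these levels. The sign of the clustered median was not stable, since it was -0.27 over the 14 clustered genes at or above a mean log2 CPM of 0, and it was 0.03 with the trend in length and GC removed. The median over all genes was 0.01, and over genes with a mean log2 CPM under 0 it was 0.15. By cluster, 0 of 10 alpha genes, 2 of 19 beta genes and 6 of 22 gamma genes were called, with medians of 0.49, 0.16 and -0.18. The median of 0.16, for the clustered and for the beta genes, is the fitted fold of Pcdhb4. That gene rested on 1 read in 1 IAA library, so the value is set by the prior count. Many low genes had no reads in one of the groups, where a fitted fold depends on the prior count. With those genes set at the bound that a floor of 3 counts over the group allows, or at 0 where no read number could be recovered, the median was 1.36 for the non-clustered genes and 0 for the clustered ones, 0 for alpha, 0 for beta and still -0.18 for gamma. For alpha this value follows from the rule, since 7 of 10 genes were at 0 reads in a group with no read number recovered, and no gamma gene was at 0 reads in a group. The beta value follows largely from that rule too. In DMSO cells 7 of 19 beta genes were at 0 reads and in IAA cells 4, most with a bound of 0. Among the 11 non-clustered genes these numbers were 3 and 1. The medians of 1.36 and 0 thus depend in part on how many genes had 0 reads in a group. In these bulk samples, more cells expressing a gene and more RNA per cell cannot be told apart.

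**Figure D1:**
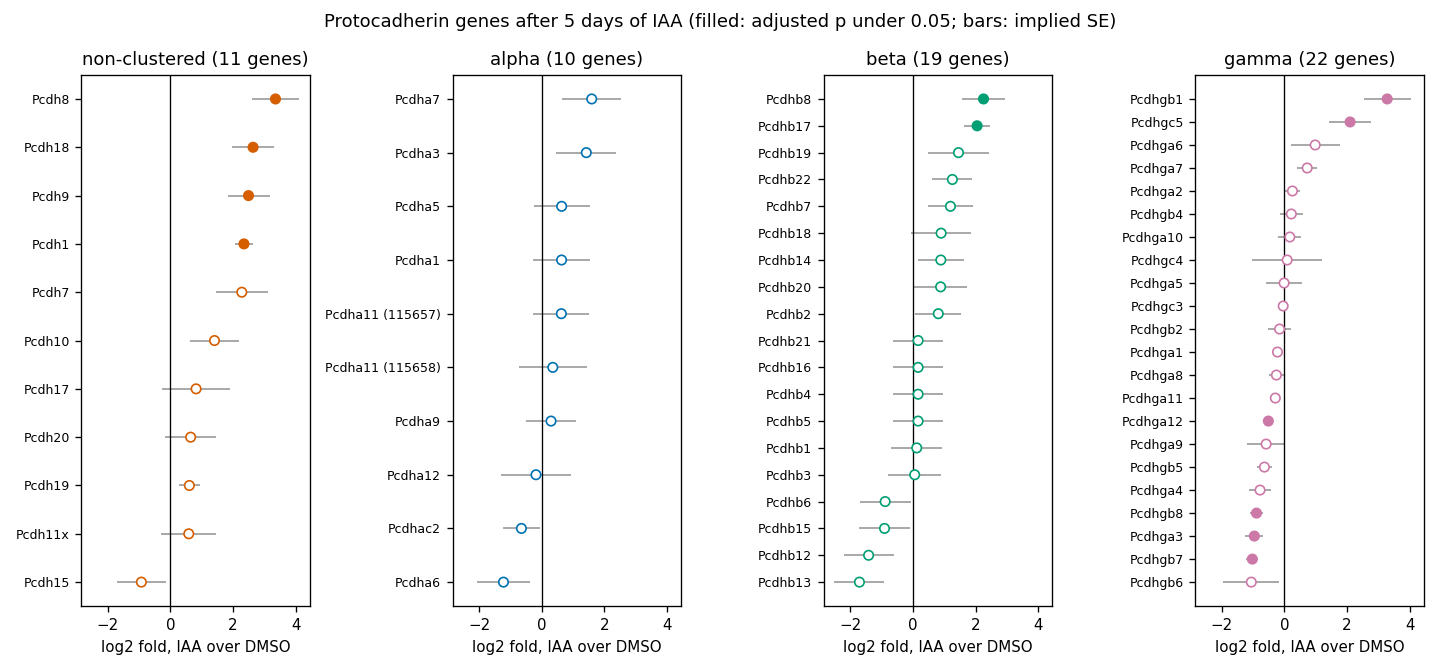
Log2 fold of IAA over DMSO at 5 days (horizontal axis) for each protocadherin gene, in 1 panel per subgroup, sorted by fold. Points are folds of the authors' deposited table, bars are the implied SE, and filled points have an adjusted p under 0.05. The 10 folds above 0 among 11 non-clustered genes contrast with the gamma panel, where 14 of 22 lie below 0, and the 2 Pcdha11 entries are told apart by the last digits of their transcript IDs.

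Pcdh1 is a delta protocadherin of epithelial and endothelial adhesion, and it had the lowest adjusted p of all members. Its derived level at 5 days was 4.65 log2 CPM in IAA cells and 2.30 in DMSO cells, a log2 fold of 2.35 ± 0.28 in the authors' deposited table (adjusted p by limma = 5.12e-05), or 5.10-fold. It was the most abundant non-clustered member, and the one called gene of the 2 in its subgroup whose mean log2 CPM was not under 0. The other was Pcdh19, a delta protocadherin encoded on the X chromosome, at 0.33 log2 CPM in IAA cells and -0.28 in DMSO cells, a fold of 0.61 ± 0.34 that did not pass the test (adjusted p = 0.216).

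Pcdh8, known as the paraxial protocadherin of gastrulating mesoderm, had a derived level of 0.92 log2 CPM in IAA cells and -2.44 in DMSO cells. Its log2 fold in the authors' deposited table, 3.36 ± 0.77 (adjusted p by limma = 0.00578), was the highest of all members. Pcdh18, a delta protocadherin, stood at 0.43 log2 CPM in IAA cells and -2.22 in DMSO cells, and the authors' deposited table gave a fold of 2.64 ± 0.66 (limma adjusted p = 0.00969). These 2 genes thus lay under 1 CPM in DMSO cells and over 1 CPM in IAA cells. Pcdh9, a delta protocadherin best known from brain, was rarer, at -2.86 log2 CPM in IAA cells and -5.36 in DMSO cells. The DMSO value is that of 0 reads in all libraries of that group, which runs from -5.36 to -5.34 at 5 days. The 6 libraries together held between 10 and 192 reads of Pcdh9, so that its level was at least 2.56-fold higher in IAA cells, taking 10 reads against a floor of 3 reads over the DMSO group and allowing for the deeper IAA libraries. In the authors' deposited table its limma adjusted p was 0.0143.

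Promoter sequences of Pcdh8, Pcdh9 and Pcdh18 are shown because these genes rose, lie outside the clusters and were among the windows used. Pcdh1, which also rose and lies outside the clusters, was not among those windows. Each is the 250 bases before the RefSeq start on GRCm38.p6, written 5′ to 3′ on the strand of the gene. Capitals mark 3 short motifs chosen after reading the sequences, the CCAAT box (CCAAT, or ATTGG on the other strand), the TATA box (TATAAA or TTTATA) and the octamer to which POU factors bind (ATTTGCAT or ATGCAAAT).
Pcdh8, chr14:79771313-79771562, minus strand: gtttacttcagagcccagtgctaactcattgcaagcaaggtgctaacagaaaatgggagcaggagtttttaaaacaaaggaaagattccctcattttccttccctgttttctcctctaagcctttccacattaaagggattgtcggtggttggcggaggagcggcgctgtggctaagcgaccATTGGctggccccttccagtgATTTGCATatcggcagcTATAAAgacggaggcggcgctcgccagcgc
Pcdh9, chr14:93890680-93890929, minus strand: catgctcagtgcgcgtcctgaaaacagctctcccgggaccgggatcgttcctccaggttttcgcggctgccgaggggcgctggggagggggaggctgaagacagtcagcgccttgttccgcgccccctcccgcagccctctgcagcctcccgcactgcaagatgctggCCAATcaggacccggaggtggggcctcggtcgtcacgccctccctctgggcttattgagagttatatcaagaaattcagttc
Pcdh18, chr3:49757317-49757566, minus strand: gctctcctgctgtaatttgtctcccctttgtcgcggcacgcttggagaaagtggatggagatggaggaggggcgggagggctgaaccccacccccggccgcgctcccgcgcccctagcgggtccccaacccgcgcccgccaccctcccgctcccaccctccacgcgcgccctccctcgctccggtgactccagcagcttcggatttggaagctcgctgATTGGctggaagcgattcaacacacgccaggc

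The Pcdh8 window held all 3 motifs, with the CCAAT box 68 bases, the octamer 47 bases and the TATA box 30 bases before the start, counted from the first base of each match. Pcdh9 had a CCAAT box at 82 bases and Pcdh18 one at 32 bases. RefSeq windows were used for 9 non-clustered members, and 8 of them held a CCAAT box, against 33.8% of the 32851 windows of the same length in the table. The marked motifs were chosen after reading sequences that are among these 9, so the counts are no test of enrichment. The CCAAT box was also in the windows of Pcdh10, Pcdh15, Pcdh17, Pcdh19 and Pcdh20, which were not called at 5 days. The octamer was in 1 of the 9, that of Pcdh8, and in 1.60% of all windows. The TATA box was in 2 of 9 and in 12.4% of all, and a GC box (GGGCGG or CCGCCC, not marked) in 4 of 9 and in 32.7%. The GC content of the windows was 51.2% for Pcdh8, 63.6% for Pcdh9 and 68.0% for Pcdh18, with a median of 52.4% over all windows. These matches describe the letters of the windows and say nothing about binding.

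The remaining non-clustered genes did not pass the test at 5 days. Pcdh7 lay just outside it, at -2.30 log2 CPM in IAA cells and -4.59 in DMSO cells, a fold of 2.28 ± 0.83 in the authors' deposited table (adjusted p by limma = 0.0597). Pcdh10 had a fold of 1.41 ± 0.78 (adjusted p = 0.216) in the authors' deposited table and Pcdh17 one of 0.82 ± 1.09 (adjusted p = 0.632). Pcdh20 and Pcdh11x rested on 2 to 4 and on 3 reads in all, with 0 in DMSO cells. Pcdh15, part of the tip link of sensory hair cells, rested on 1 read in 1 library. Read numbers this low show that the transcripts were near the floor of these libraries and leave a fall undetectable. A large rise could be called, as for Pcdh9, which had 0 reads in DMSO cells.

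**Figure D2:**
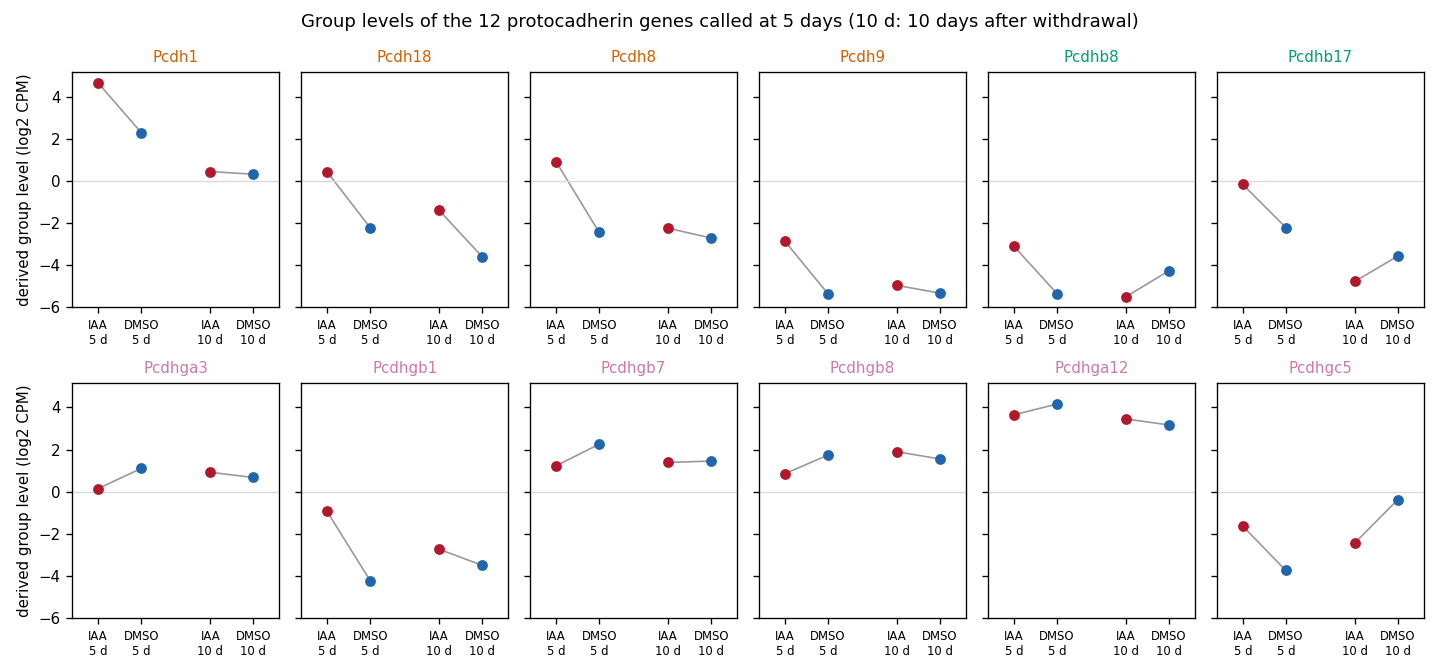
Derived group level in log2 CPM (vertical axis) of the 12 members called at 5 days, in IAA and DMSO cells at 5 days and 10 days after withdrawal. Points are group levels derived from the authors' deposited table without library values, lines join the groups of 1 table, and the tables were normalized separately. The IAA point is above the DMSO point at 5 days for 8 genes and below it for Pcdhga3, Pcdhgb7, Pcdhgb8 and Pcdhga12.

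The clusters lie one after the other on the plus strand of chromosome 18 (GRCm38, GENCODE M21), the alpha genes over 257.5 kb from 36930184 to 37187661, the beta genes over 259.5 kb from 37264938 to 37524479 and the gamma genes over 180.1 kb from 37661793 to 37841873. Pcdh1 lies beyond them on the minus strand, from 38185914 to 38212053. The gamma genes were by far the most abundant cluster. Their summed derived level at 5 days was 67.9 CPM in IAA cells and 81.4 CPM in DMSO cells, whereas the beta genes summed to 2.10 CPM in IAA cells and 0.979 CPM in DMSO cells and the alpha genes to 0.695 CPM in IAA cells and 0.701 CPM in DMSO cells. The 11 non-clustered genes summed to 30.2 CPM in IAA cells and 6.40 CPM in DMSO cells, most of it Pcdh1.

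Among the gamma genes, those that fell were all above a mean log2 CPM of 0, and both that rose were below it. Pcdhgb7 was at 1.24 log2 CPM in IAA cells and 2.25 in DMSO cells, a fold of -1.02 ± 0.19 in the authors' deposited table (adjusted p by limma = 0.00146). Pcdhga3 was at 0.15 log2 CPM in IAA cells and 1.11 in DMSO cells, and the authors' deposited table gave -0.96 ± 0.28 (adjusted p = 0.0236). Pcdhgb8, annotated as a polymorphic pseudogene, was at 0.86 log2 CPM in IAA cells and 1.74 in DMSO cells, with a fold of -0.89 ± 0.21 in the authors' deposited table (adjusted p = 0.00634). Pcdhga12, the most abundant of the 4, was at 3.65 log2 CPM in IAA cells and 4.16 in DMSO cells, and its fold in the authors' deposited table was -0.51 ± 0.11 (adjusted p = 0.00518), or 1.42-fold lower.

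Of these, Pcdhgb7, Pcdhgb8 and Pcdhga12 sit close together as the 16th, 18th and 19th of the 22 gamma genes along the cluster. Between them is Pcdhga11, at 3.01 log2 CPM in IAA cells and 3.30 in DMSO cells, whose fold of -0.29 ± 0.12 in the authors' deposited table did not pass (adjusted p = 0.0944). The 4 adjacent genes therefore all had folds below 0, with 3 of them called. The grouping was noticed after the values were seen, and no test of position was made. Further along, the C-type gene Pcdhgc3, the most abundant gamma gene, had nearly equal levels of 4.16 log2 CPM in IAA cells and 4.19 in DMSO cells, a fold of -0.03 ± 0.10 in the authors' deposited table (adjusted p = 0.842).

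The gamma genes that rose were rare ones. Pcdhgb1 was at -0.94 log2 CPM in IAA cells and -4.22 in DMSO cells, with a fold of 3.28 ± 0.75 in the authors' deposited table (adjusted p by limma = 0.00599). Pcdhgc5, the last C-type gene, was at -1.64 log2 CPM in IAA cells and -3.74 in DMSO cells, and the authors' deposited table gave 2.10 ± 0.67 (adjusted p = 0.0346). The C-type genes did not move as a group, since Pcdhgc4 was at -3.11 log2 CPM in IAA cells and -3.21 in DMSO cells (adjusted p = 0.958 in the authors' deposited table) and Pcdhac2 had a fold of -0.65 ± 0.59 (adjusted p = 0.467). The largest negative gamma fold, -1.05 ± 0.89 for Pcdhgb6 in the authors' deposited table, did not pass (adjusted p = 0.434).

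**Figure D3:**
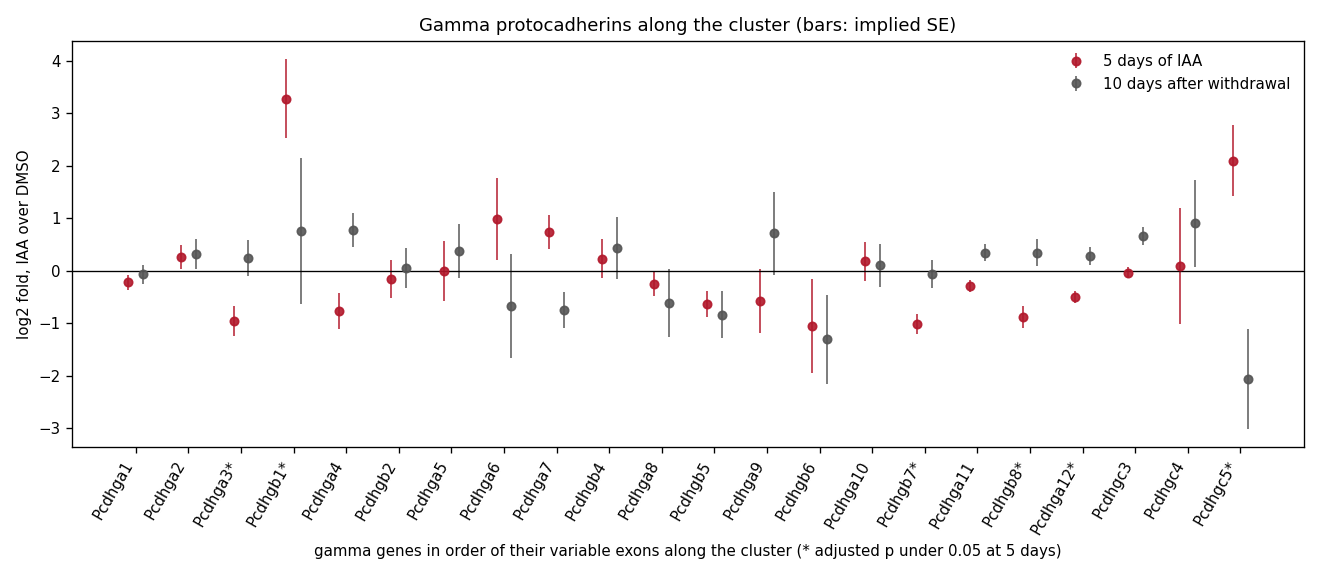
Log2 fold of IAA over DMSO (vertical axis) of the 22 gamma genes in the order of their variable exons (horizontal axis), with the implied SE as bars. Red points are 5 days of IAA and grey points 10 days after withdrawal, from the authors' deposited table of each time. Pcdhgb7, Pcdhga11, Pcdhgb8 and Pcdhga12 lie side by side with 5-day folds between -1.02 and -0.29.

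How the reads of a gamma or alpha gene were assigned bears on these values. Because the constant exons are shared, only part of each transcript is its own. The share of 50-base windows that occur in transcripts of no other GENCODE M21 gene had a median of 55.1% for gamma genes (34.1% to 79.9%). It was 39.4% for alpha genes (31.3% to 51.8%), against 96.3% for beta genes and 100% for non-clustered ones. Below a limit set by precision, the deposited mean levels give back the product of the 6 read numbers, each doubled and raised by 1. That product was a whole number within 0.01 for 17 of 18 beta genes and 7 of 7 non-clustered genes at 5 days, but for 0 of 9 alpha genes. Of all 2536 genes with a product under 2000, as for 8 of those alpha genes, 91.2% were whole. Only 4 gamma genes could be tested, Pcdhgb1, Pcdhga6, Pcdhgc4 and Pcdhgc5, and 0 of them were whole, against 76.2% of all genes with a product from 20000 to 250000. The other 18 gamma genes, the 4 that fell among them, had products too large to test. The values of the alpha genes tested and of these 4 gamma genes were thus not products of whole read numbers; whether a program divided shared reads among transcripts is not given in the sources used here. Pcdhgc4 shares the constant exons and still stood at a mean log2 CPM of -3.16, against 4.17 for Pcdhgc3, so reads of those exons were not counted in full for every gene. Folds of single gamma genes are uncertain to the extent that shared reads were divided, and its part in the results was not tested.

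Other annotated genes overlap the same exons. All 22 gamma genes overlap Gm37013, Gm37388, Gm38182 and Gm42416 on the same strand, and of these Gm38182 was in the tables, where the authors' deposited table gave it -1.03 ± 0.83 for 5 days and 2.07 ± 1.03 for 10 days on the log2 scale, neither of which passed (adjusted p = 0.407 and 0.901). The antisense gene Gm26672 overlaps exons of Pcdhga10, Pcdhgb7, Pcdhga11 and Pcdhga12, and BC037039 overlaps Pcdhgc3 from the opposite strand. Whether counting used strand is not given in the sources used here, so reads of Pcdhgb7, Pcdhga11 and Pcdhga12 cannot be told apart from those of Gm26672. Gm9748 overlaps Pcdh8 on the opposite strand and had a log2 fold of -0.46 in the authors' deposited table (adjusted p = 0.774).

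In the beta cluster Pcdhb17 and Pcdhb8 rose. Pcdhb17 was at -0.17 log2 CPM in IAA cells and -2.21 in DMSO cells, with a fold of 2.05 ± 0.42 in the authors' deposited table (adjusted p by limma = 0.00286). It was the most abundant beta gene at 5 days. Pcdhb8 was at -3.09 log2 CPM in IAA cells and at -5.35 in DMSO cells, the value of 0 reads. Its reads summed to between 8 and 122 over the 6 libraries, so it was at least 2.05-fold higher in IAA cells by the same floor, and the authors' deposited table gave it a limma adjusted p of 0.0254. Pcdhb22 had -1.63 log2 CPM in IAA cells and -2.89 in DMSO cells, a fold of 1.26 ± 0.64 in the authors' deposited table that did not pass (adjusted p = 0.175). Pcdhb13 had the largest negative fold of the cluster on 3 to 7 reads in all, with 0 reads in IAA cells (adjusted p = 0.140 in the authors' deposited table). Of the 19 beta genes, 7 rested on 1 read in 1 library.

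No alpha gene was called, and all 10 had mean log2 CPM under 0, where 7.91% of all genes were called. Pcdhac2 was the most abundant, at -2.04 log2 CPM in IAA cells and -1.40 in DMSO cells. Pcdha7 had the highest fitted fold and Pcdha6 the lowest, and each had the value of 0 reads in one group. Adjusted p-values ran from 0.242 for Pcdha7 to 0.927 for Pcdha12 in the authors' deposited table. The symbol Pcdha11 names a pair of gene IDs, with folds of 0.36 for the transcript ENSMUST00000115658.5 and 0.63 for ENSMUST00000115657.9 in the authors' deposited table, and which gene each is meant to be is uncertain.

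**Figure D4:**
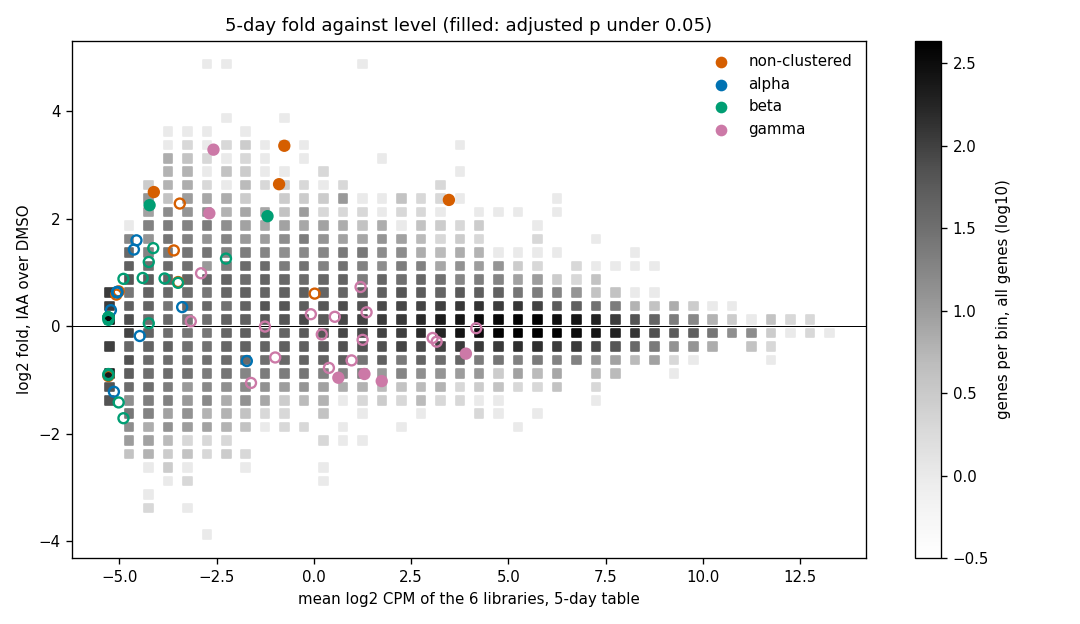
Log2 fold of IAA over DMSO at 5 days (vertical axis) against the mean log2 CPM of the 6 libraries (horizontal axis). Grey squares are bins of all 18765 genes, shaded by the log10 number of genes, and circles are the 62 members, filled where the adjusted p is under 0.05. Of the 62 members 46 lie left of a log2 CPM of 0, where folds of all genes spread widely, and Pcdh1 and Pcdhga12 are the 2 called members above a level of 3.

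At 10 days after IAA was withdrawn, no protocadherin was called. The authors' limma table gave 0 of 47 members and 0% of all 18712 genes at an adjusted p under 0.05, and the lowest adjusted p of any gene was 0.822. At an unadjusted p under 0.05 there were 7 members of 47, against 805 genes in all (4.30%). Pcdhgc3 had the lowest unadjusted p of the members, 0.00161 in the authors' deposited table, at 4.16 log2 CPM in IAA cells and 3.50 in DMSO cells, a fold of 0.66 ± 0.17 (limma adjusted p = 0.901). Pcdh18, one of the genes that rose at 5 days, had -1.40 log2 CPM in IAA cells and -3.60 in DMSO cells, a fold of 2.21 ± 0.77 in the authors' deposited table, with the same adjusted p. The others at an unadjusted p under 0.05 were Pcdhac2, Pcdhb22, Pcdhga4, Pcdhga7 and Pcdhgc5. Pcdh1 stood at 0.45 log2 CPM in IAA cells and 0.32 in DMSO cells, a fold of 0.12 ± 0.35 in the authors' deposited table (adjusted p = 0.949). The median log2 fold was 0.37 over 9 non-clustered genes and 0.11 over 38 clustered ones. With low genes at their bounds it was 0 for both. For the non-clustered genes this follows in part from the rule, since 4 of 9 were at 0 reads in DMSO cells with a bound of 0.

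Whether a fold at 5 days differed from that at 10 days was tested with a z test of their difference over the 18120 genes in both tables, which share no control library. The difference passed at a BH adjusted p under 0.05 for 13 of 46 members, against 10.4% of all genes. With Pcdh1 these were 12 clustered genes, namely Pcdhac2, Pcdhb8, Pcdhb17, Pcdhb22, Pcdhga4, Pcdhga7, Pcdhgb7, Pcdhga11, Pcdhgb8, Pcdhga12, Pcdhgc3 and Pcdhgc5. For Pcdhb8 a group was at 0 reads in each table, so the size of its fitted difference depends on the prior count. The z test takes the SE as known. With a t distribution on Welch-Satterthwaite degrees of freedom 7 passed, against 6.94% of all genes, namely Pcdh1, Pcdhb22, Pcdhga4, Pcdhgb8, Pcdhga12, Pcdhgc3 and Pcdhgc5.

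Pcdh1 had the lowest adjusted p in that test, with a difference of 2.23 ± 0.45 on the log2 scale (3.84e-05). Its DMSO level was 2.30 log2 CPM at 5 days and 0.32 at 10 days, although the tables were normalized separately and the controls are of different times. Pcdhga12 (-0.79 ± 0.20, adjusted p = 0.00229), Pcdhgb8 (-1.23 ± 0.33, adjusted p = 0.00433) and Pcdhgc3 (-0.69 ± 0.20, adjusted p = 0.00890) were lower at 5 days than at 10 days relative to their own controls. For Pcdhgc3 this came with a 5-day fold near 0 and a 10-day fold above 0. Pcdhgc5 had opposite folds, 2.10 ± 0.67 at 5 days and -2.06 ± 0.95 at 10 days in the authors' deposited table, and a difference of 4.16 ± 1.16 (adjusted p = 0.00686). For Pcdh8 (adjusted p = 0.0517), Pcdhga3 (0.0586), Pcdhgb1 (0.350), Pcdh9 (0.253) and Pcdh18 (0.854), all called at 5 days, the difference did not pass.

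Per kilobase of transcript, the highest levels at 5 days were 1.94 log2 CPM per kb for Pcdhgc3, 1.56 for Pcdhga12, 1.51 for Pcdh1, 0.91 for Pcdhga11 and 0.82 for Pcdhga1. The next, Pcdhgb8, was at -0.18. At 10 days Pcdhgc3 was still highest at 1.60, followed by Pcdhga12 at 0.97, Pcdhga1 at 0.91 and Pcdhga11 at 0.88, whereas Pcdh1 was at -1.57. The median at 5 days was -1.66 log2 CPM per kb for gamma genes, -6.42 for non-clustered, -6.73 for beta and -7.24 for alpha genes. Pcdhgb8 ranked above Pcdhgb7 (-0.49) and Pcdhga2 (-0.87) per kilobase although its mean log2 CPM of 1.30 was below theirs. Its annotated transcript, at 2796 bases, is the shortest of the gamma genes because it holds coding sequence alone, without untranslated regions. Per kilobase of coding sequence the order was reversed, at 0.26 for Pcdhgb7, -0.13 for Pcdhga2 and -0.18 for Pcdhgb8.

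The clusters also differ in the make-up of their transcripts. All 20 beta genes were single-exon transcripts, while alpha and gamma transcripts had 4 exons. Median transcript length was 5611 bases for non-clustered, 5339 for alpha, 3724 for beta and 4722 for gamma genes, against 2743 over all genes. Median GC content was 46.9% for non-clustered, 47.3% for alpha, 45.5% for beta and 53.0% for gamma transcripts, against 50.3% over all genes, so the gamma genes were the richest in GC. Upstream AUGs, start codons in the 5′ untranslated region that can divert ribosomes, were present in 8 of 11 non-clustered (72.7%), 5 of 7 alpha (71.4%), 13 of 19 beta (68.4%) and 12 of 21 gamma transcripts (57.1%) with an annotated 5′ untranslated region, against 54.4% of all genes. Pcdh17 had the most, 19. Pcdh1 and Pcdh8, both higher in IAA cells, had none, and Pcdh9 had 14.

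Genes that act on protocadherin promoters moved in both directions. Among 14 genes of promoter architecture and cohesin, 3 rose and 2 fell at 5 days, with a median log2 fold of -0.01. The 5 called are 35.7% of the list, near the 33.7% of all genes at or above a mean log2 CPM of 0. Stag2, a cohesin subunit, had a fold of 0.62 ± 0.08 in the authors' deposited table (adjusted p by limma = 0.000116), and the meiotic cohesin subunit Smc1b one of -0.59 ± 0.20 (adjusted p = 0.0435), while Ctcf was at 0.11 ± 0.06 (adjusted p = 0.201). Among 19 genes linked to silencing of the clusters, 4 rose and 10 fell (73.7% called), with a median of -0.18. That same background was 33.7%, but most of these genes lay far above a mean log2 CPM of 0, where small folds pass. Rest, for example, was called at -0.15 ± 0.04 (adjusted p by limma = 0.0266). The share called among all genes of like abundance was not computed. The de novo DNA methyltransferases Dnmt3b, at 1.17 ± 0.09 in the authors' deposited table, and Dnmt3a, at 0.70 ± 0.08, rose, together with Wiz and Smchd1. The demethylating enzymes Tet2, at -0.73 ± 0.10 in the authors' deposited table, and Tet1, at -0.51 ± 0.05, fell, as did Zfp57 at -0.63 ± 0.06 and Uhrf1 at -0.45 ± 0.05. Dnmt3l (-0.35 ± 0.05) and Dnmt1 (-0.19 ± 0.05) also fell, and Tet3, at 0.36 ± 0.20, was not called. The Dnmt genes thus did not move in 1 direction. Of 17 genes of the WAVE complex and of kinases and phosphatase partners that bind protocadherin tails, 3 rose and 3 fell (35.3% called, again near that background), and the fold of largest size was 0.65 ± 0.14 for Nckap1l in the authors' deposited table.

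Other cadherins were compared through lists of relatives. Of 19 other large cadherins with 5-day values, 7 rose and 1 fell, with a median log2 fold of 0.09. The share called was 42.1%, against 25.5% of all genes and 33.7% of those at or above a mean log2 CPM of 0. Of the giant Fat cadherins, Fat4 (2.80 ± 0.68), Fat3 (1.66 ± 0.42) and Fat1 (1.04 ± 0.10) rose in the authors' deposited table, while Fat2 had a fold of -0.37 ± 0.20 that did not pass (adjusted p = 0.195). The Fat4 ligand Dchs1 rose by 1.58 ± 0.28 in the authors' deposited table. Of 20 classical and related cadherins 6 rose and none fell, where 25.5% of all genes were called, with a median of 0.37. Cdh2, the N-cadherin of neural and mesodermal cells, rose by 0.58 ± 0.12 and Cdh1, the E-cadherin of epithelia and stem cells, by 0.34 ± 0.05 in the authors' deposited table. Cdh8 also rose, at -2.16 log2 CPM in IAA cells, with its DMSO level at the value of 0 reads. In these 5 lists no gene was called at 10 days. All lists were chosen with earlier results of these data known.

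Marker genes moved beside these folds at 5 days, when 13.5% of all genes rose and 12.1% fell. At or above a mean log2 CPM of 0, 33.7% of all genes were called. The stem cell markers were abundant, and small folds passed, as for Pou5f1 at -0.15 ± 0.04 and Sox2 at -0.20 ± 0.05. Larger falls were called for Esrrb (-0.81 ± 0.10), Klf4 (-0.76 ± 0.07), Nanog (-0.74 ± 0.06), Zfp42 (-0.57 ± 0.06) and Dppa5a (-0.43 ± 0.06). Utf1, at -0.01 ± 0.06, was not called. Of 8 markers of embryonic stem cells 7 fell, and their summed derived level was 5360 CPM in IAA cells and 6937 CPM in DMSO cells, with Pou5f1 at 10.61 log2 CPM in IAA cells and 10.76 in DMSO cells. Of 9 neuron markers measured, 2 rose and 2 fell, and the sum was 332 CPM in IAA cells and 515 CPM in DMSO cells, while Dcx was not among the genes of the table. Most of the difference between these sums was Stmn2, at 7.24 log2 CPM in IAA cells and 8.21 in DMSO cells. Of 5 neural progenitor markers 1, Nes, rose, and of 9 fibroblast markers 2, Lox and Mmp2, rose, while Lum was not among the genes of the table. The progenitor markers summed to 55.7 CPM in IAA cells and 31.3 CPM in DMSO cells, but without Nes the other 4 summed to 16.4 CPM in IAA cells and 19.8 CPM in DMSO cells. The fibroblast markers summed to 39.7 CPM in IAA cells and 24.8 CPM in DMSO cells. Most of that difference was Mmp2, at 4.70 log2 CPM in IAA cells and 3.56 in DMSO cells, so it is no shift of the whole list. At 10 days no marker was called, and the sums for stem cell markers were 5567 CPM in IAA cells and 5945 CPM in DMSO cells. The part of other cell types in the protocadherin folds was not tested.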

How the data were processed

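Per the labels, 12 TruSeq libraries were built from poly(A) RNA. The authors deposited 1 limma result table per time, with 1 transcript per gene, holding log2 folds, mean log2 CPM, the moderated t and log-odds as scores, and p-values with BH adjustment over the table, per the file headers. They also deposited transcript lengths, upstream AUGs and the GC content as a fraction. Folding energies, deposited as a score, were not used. The sources used here name no aligner, counting program, genome build or limma version.

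From these, SEs (fold over t) and group levels (mean plus or minus 0.5 of the fold) were derived with Python 3.11.15, pandas 2.3.3 and SciPy 1.17.1. The planned count test and its fallback need library values, so the authors' limma results are the main result. Degrees of freedom inferred from t and p were 13.4 (5-day table) and 15.2 (10-day table). A prior count of 0.5 gave genes with 1 read in 1 library a fixed level, from which depth and read products were recovered; these cover counting error only. Steps across genes were tested on simulated data. Coordinates are GENCODE M21 on GRCm38, 1-based, and the authors' build may differ. Promoter windows are from RefSeq.

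Members were every gene matching Pcdh. Full values are given for genes that passed a test, that had the highest level or largest fold of their subgroup, or that are C-type genes. They are also given for up to 6 genes per list, and for further list genes where these limit a statement. The members and lists were chosen with earlier results of these data known.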

Additional observations from a re-analysis of the deposited data

Results flagged for a closer look

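The change at 5 days differed from that 10 days after withdrawal, in a z test of the difference (5 days minus 10 days, log2 scale, BH adjusted over 18120 genes), for 13 of 46 members. Differences above 0 were 2.23 for Pcdh1, 3.26 for Pcdhb17, 2.96 for Pcdhb22, 1.49 for Pcdhga7 and 4.16 for Pcdhgc5. The fitted difference of Pcdhb8, 3.49, depends on the prior count, because DMSO cells at 5 days and IAA cells at 10 days had 0 reads of it. Differences below 0 were -2.16 for Pcdhac2, -1.56 for Pcdhga4, -0.95 for Pcdhgb7, -0.63 for Pcdhga11, -1.23 for Pcdhgb8, -0.79 for Pcdhga12 and -0.69 for Pcdhgc3. The adjusted p of Pcdhac2 (0.0488) and of Pcdhb8 (0.0490) was just inside the threshold, and Pcdhb8 rested on 2 to 4 reads in the 10-day libraries.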

How the results depend on the processing

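Without library values, leaving out single replicates, another normalization by size factors and a fit with the replicate number as a block were not run. No paired analysis was possible because the tables hold no columns for single libraries. At 5 days 12 members were called, 8 higher and 4 lower. Setting the median fold to 0 left these counts as they were. Removing the trend with length and GC gave 7 lower in IAA cells, Pcdhga11 (fold -0.48, adjusted p = 0.00788), Pcdhga4 and Pcdhgb5 being added, and split all called genes into 1780 higher and 3627 lower, against 2524 and 2265. Adjusting only over genes not under a mean log2 CPM of 0 left 5 members, 1 of them higher. The Benjamini-Yekutieli adjustment left 3, 2 higher (Pcdh1 and Pcdhb17) and 1 lower (Pcdhgb7). An adjusted p under 0.01 left 5 higher, and requiring a log2 fold of at least 1 left 1 lower. Reading the deposited moderated t against 4 degrees of freedom called 0 members, 0 higher, 0 lower, and 0 of all genes; its SE stayed shrunken, so this is no test without shrinkage, for which library values are needed. The median fold of clustered genes was -0.27 at or above a mean log2 CPM of 0 and 0.03 without the length and GC trend, against 0.16. Only setting the median to 0 and removing the length and GC trend alter the folds. Under these no fold of the members called at 5 days changed sign. At 10 days the count was 0 in each setting run. The lowest adjusted p of any gene there was 0.822. The stricter thresholds, the Benjamini-Yekutieli adjustment and the 4 degrees of freedom could therefore give no other count. The difference between times passed for 7 members in place of 13 with Welch-Satterthwaite degrees of freedom. Per kilobase of coding sequence, median levels were -5.26 for non-clustered, -6.15 for beta, -6.33 for alpha and -0.90 for gamma genes, which left gamma highest. Depth limits what can be said of rare members, since 8 at 5 days rested on 1 read.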
